A study of Mus musculus with 22 samples.

Results

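The platelet-derived growth factor (PDGF) family was followed through sorted stromal cells of mouse tumors to find which population carries the transcripts of each ligand and of each receptor. The members are 7 of the 41388 genes in the files and were taken by name, namely the 4 ligand genes Pdgfa, Pdgfb, Pdgfc and Pdgfd, the receptor genes Pdgfra and Pdgfrb, and the receptor-like gene Pdgfrl. All 7 passed the filter on low counts. The cells came from tumors of C57BL/6 mice at postnatal day 56 and were sorted by the reporter TdTomato (TdT) and the leukocyte antigen CD45. The populations are TdTOSX single positive (TdTOSX+;CD45-), double negative (TdTOSX-;CD45-), double positive (TdTOSX+;CD45+) and CD45 single positive (TdTOSX-;CD45+). RNA was sequenced in 11 libraries from wild type mice (Osx-cre;Ai9, 4 mice inoculated) and 11 from mice labelled Cdh2-cKO (Cdh2-cKO;Ai9, 6 mice inoculated), where each genotype contributed 2 TdTOSX single positive libraries and 3 from every other sort. All mice, wild type included, carried the doxycycline-repressible Cre under the Sp7 (Osx) promoter and the Ai9 reporter, so TdT marks any cell in which the Cre has been active at some time and not current Sp7 expression. Cdh2-cKO stands for a conditional deletion of the cadherin gene Cdh2 with that Cre. The study states that its later experiments used mice kept on doxycycline until weaning, which represses the Cre up to that age. Its description of the sequencing does not name the diet. The tumor is given differently by the sources, as an orthotopic MMTV-BO1 tumor in the sample labels, as a subcutaneous tumor in the series design and as a subcutaneous PyMT-BO1 tumor in the methods of the study.

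PDGFs are secreted growth factors that act as dimers on a pair of receptor tyrosine kinases, PDGFRα and PDGFRβ. PDGF-A and PDGF-B are cut inside the cell and leave it active, whereas PDGF-C and PDGF-D are secreted with a CUB domain that extracellular proteases must remove. PDGF-A and PDGF-C bind mainly PDGFRα, PDGF-D binds mainly PDGFRβ, and PDGF-B binds both. Fibroblasts, pericytes and smooth muscle cells are the classical PDGF-responsive cells. In tumors, PDGF is known for recruiting fibroblasts and for attaching pericytes to vessels.

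The promoters of the members are shown because the members fell into a group found mainly in the CD45- populations and a group found in all populations. Windows of the 250 bases before the transcription start were taken from RefSeq (GRCm38.p6), which held them for 4 of the 7 members. They are written 5′ to 3′ on the strand of the gene, with matches to the GC box GGGCGG and to the TATA box TATAAA, on either strand, in capitals. Pdgfra and Pdgfd belong to the CD45- group, and Pdgfa, with a pair of annotated starts, and Pdgfc to the other. Both Pdgfa windows lie inside the gene as counted here, which spans 138976014 to 138997370.
Pdgfra, chr5:75152001-75152250, plus strand: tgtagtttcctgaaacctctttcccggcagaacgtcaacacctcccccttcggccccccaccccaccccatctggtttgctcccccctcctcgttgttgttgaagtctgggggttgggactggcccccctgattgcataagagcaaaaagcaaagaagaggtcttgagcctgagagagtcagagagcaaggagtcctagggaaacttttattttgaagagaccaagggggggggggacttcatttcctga
Pdgfd, chr9:6168236-6168485, plus strand: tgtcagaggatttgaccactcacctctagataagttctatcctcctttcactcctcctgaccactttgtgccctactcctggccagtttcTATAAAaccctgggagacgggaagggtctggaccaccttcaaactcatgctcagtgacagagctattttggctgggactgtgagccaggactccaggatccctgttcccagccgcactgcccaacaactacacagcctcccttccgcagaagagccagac
Pdgfa, start inside the gene, chr5:138994282-138994531, minus strand: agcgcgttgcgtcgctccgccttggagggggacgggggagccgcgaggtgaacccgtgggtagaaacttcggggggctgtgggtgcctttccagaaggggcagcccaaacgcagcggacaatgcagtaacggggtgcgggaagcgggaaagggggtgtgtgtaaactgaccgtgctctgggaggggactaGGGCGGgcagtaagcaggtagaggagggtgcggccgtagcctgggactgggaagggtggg
Pdgfa, start further upstream, chr5:138994945-138995194, minus strand: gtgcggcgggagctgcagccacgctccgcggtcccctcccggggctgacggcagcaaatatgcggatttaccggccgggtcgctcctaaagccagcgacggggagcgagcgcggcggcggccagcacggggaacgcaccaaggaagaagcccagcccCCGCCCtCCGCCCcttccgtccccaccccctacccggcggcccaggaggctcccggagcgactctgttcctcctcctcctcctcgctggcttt
Pdgfc, chr3:81036166-81036415, plus strand: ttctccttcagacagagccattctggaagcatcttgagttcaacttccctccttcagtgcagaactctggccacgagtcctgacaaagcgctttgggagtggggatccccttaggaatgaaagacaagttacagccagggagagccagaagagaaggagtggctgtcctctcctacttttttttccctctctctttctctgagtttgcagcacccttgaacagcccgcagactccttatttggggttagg
The windows of Pdgfra and Pdgfc held neither motif, that of Pdgfd held 1 match to TATAAA, and those of Pdgfa held 1 and 2 matches to GGGCGG. The Pdgfd match lay closer to the far end of its window than to the start. Whether any match acts in the promoter was not tested. The letters CCAAT, searched on both strands, were in none of the 5 windows. Among all 32851 windows of this length, 32.7% held the GC box, 12.4% the TATA box and 33.8% CCAAT. The G and C content was 54.4% in Pdgfra, 53.6% in Pdgfd, 66.4% and 72.4% in Pdgfa and 50.8% in Pdgfc, against a median of 52.4% over all windows.

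Library totals ran from 16594228 to 26784003 gene counts, so 3 counts, the smallest signal taken as present, corresponded to between 0.103 and 0.201 normalized CPM (CPM of the TMM-scaled library size). This floor covers counting error only. In the CD45- libraries, the 8 fibroblast markers (Col1a1, Dcn and Lum among them) summed to between 4230 and 59300 normalized CPM, against 63.2 to 221 in the CD45+ libraries. The podoplanin gene Pdpn, 1 of the 8, was at 0 counts in all libraries. Whether its reads could be counted with this annotation was not tested, so this is not read as absence. The 9 mural markers (Rgs5, Notch3, Kcnj8) summed to between 316 and 4460 in CD45- and between 11.4 and 27.2 in CD45+ libraries. The 6 pan-leukocyte markers summed to between 11200 and 13600 in CD45+ libraries. In CD45- libraries they ranged from 190 to 6610, and Ptprc, which encodes CD45, exceeded 50 normalized CPM in 4 of them, namely wild type TdTOSX single positive replicate 2 (81.2), wild type double negative replicate 3 (337) and both Cdh2-cKO TdTOSX single positive libraries (164 and 89.9). Wild type CD45 single positive replicate 2 was rich in lymphocytes, with Cd79a of B cells at 865 normalized CPM against at most 0.95 in every other library. Sp7 itself was at most 0.0669 normalized CPM in every library. Cdh2 went against the genotype label, as its normalized CPM was between 4.52 and 9.14 in wild type CD45- libraries and between 12.5 and 18.4 in those labelled Cdh2-cKO. These are counts over the whole gene, and whether they fall in the deleted part was not tested. The sources do not say which libraries came from separate mice, so p-values measure the spread between these libraries, which may be technical. In bulk samples, fewer cells of a type and less RNA per cell cannot be told apart.

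The family split along the CD45 sort. Transcripts of all 3 receptor genes and of the ligand Pdgfd lay in the CD45- populations of both genotypes, from 3.37 to 7.93 higher on the log2 scale than in CD45+ cells. Transcripts of Pdgfa, Pdgfb and Pdgfc were present in all 4 populations and differed between the sides of the sort by at most 0.99 on the same scale. In edgeR's quasi-likelihood test of the mean of the CD45- populations against the mean of the CD45+ populations, with Benjamini-Hochberg adjustment over 15043 genes and a threshold of 0.05, 4 of 7 members were called higher in CD45- cells of wild type mice and 0 lower. Of all genes tested, 25.7% were called higher and 25.3% lower. In the Cdh2-cKO libraries 5 members were higher and 1 was lower, against 27% and 23.6% of all genes. Every CD45- library exceeded every CD45+ library for Pdgfd, Pdgfra, Pdgfrb and Pdgfrl in both genotypes, which held for 14.1% of all genes in wild type and 21.5% in Cdh2-cKO libraries. Without the 4 CD45- libraries above 50 normalized CPM of Ptprc, a choice made after seeing the data, 4 members were called in wild type and 5 in Cdh2-cKO libraries, where 7468 and 7697 of 14817 genes were called. In the Cdh2-cKO genotype this removed both TdTOSX single positive libraries, so the double negative cells alone stood for the CD45- side. Among Cdh2-cKO libraries, Pdgfa and Pdgfb were then no longer called and Pdgfc was. The loss of a population and the loss of leukocyte-rich libraries cannot be told apart there.

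**Figure D1:**
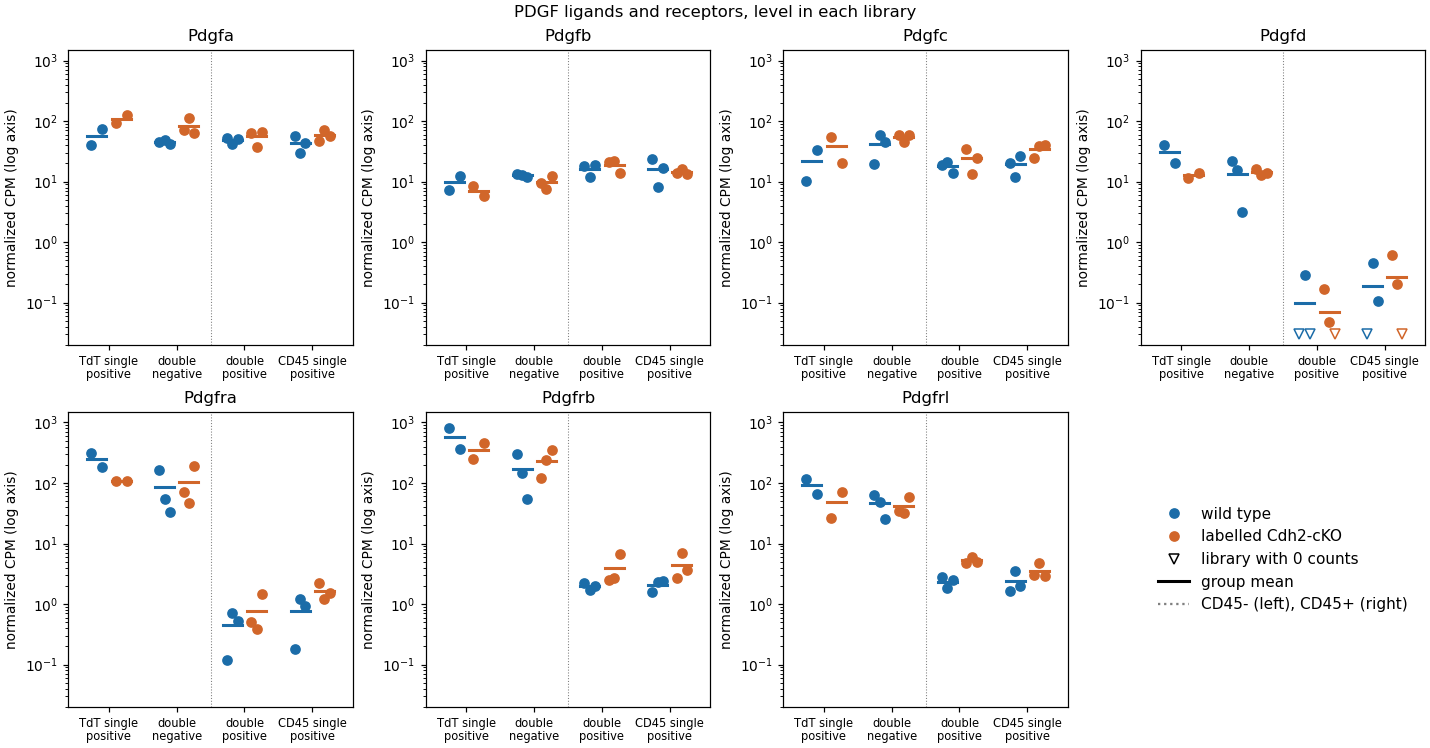
Normalized CPM of the 7 members in each of the 22 libraries on a log axis, by sorted population and genotype, where points are libraries, bars are group means and open triangles mark libraries with 0 counts. Pdgfd, Pdgfra, Pdgfrb and Pdgfrl drop from the CD45- populations on the left of each dotted line to the CD45+ populations on its right, whereas Pdgfa, Pdgfb and Pdgfc are present in all 4. Among Cdh2-cKO libraries, Pdgfb is lower in every CD45- library (5.7 to 12.4) than in every CD45+ library (13.6 to 21.8).

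Pdgfa encodes the A chain, the main ligand of PDGFRα, and lies on chromosome 5 (138976014 to 138997370, minus strand, GRCm38, as do all positions given for genes). In wild type CD45- libraries it was measured at 39.9 and 73.5 normalized CPM in TdTOSX single positive and at 45.3, 49.1 and 41.5 in double negative cells. The wild type CD45+ libraries held 52.7, 41.6 and 49.9 in double positive and 56.7, 29.3 and 44.2 in CD45 single positive cells. The sides of the sort overlapped in wild type mice, with a log2 difference (CD45- minus CD45+) of 0.15 ± 0.222 (SE, adjusted p = 0.599). In Cdh2-cKO libraries Pdgfa was at 94.8 and 124 in TdTOSX single positive and at 71.4, 111 and 64.2 in double negative cells. It was at 64.8, 37.4 and 66.6 in Cdh2-cKO double positive and at 47.7, 72.2 and 56 in CD45 single positive cells. Here Pdgfa was higher in CD45- cells by 0.72 ± 0.221 (adjusted p = 0.0113), although the lowest CD45- library was below the highest CD45+ library. This call was lost without Cdh2-cKO TdTOSX single positive replicate 2 (0.62). It was also lost without the libraries above 50 normalized CPM of Ptprc (0.60), which leaves the double negative cells on the CD45- side. The difference between the genotypes in this contrast was 0.57 (95% interval from -0.04 to 1.19, adjusted p = 0.678). Ordered by their means, the 8 groups ran from 109 in Cdh2-cKO TdTOSX single positive to 43.4 in wild type CD45 single positive cells, and each overlapped with its neighbour.

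Pdgfb encodes the B chain, which binds both receptors and is known as the endothelial signal to pericytes (chromosome 15, 79995900 to 80014808, minus strand). In wild type CD45- libraries it was at 7.25 and 12.6 normalized CPM in TdTOSX single positive and at 13.2, 13.1 and 11.8 in double negative cells. Wild type double positive cells held 17.8, 11.9 and 18.8, and CD45 single positive cells 23.9, 8.25 and 16.9. The sides overlapped, and the log2 difference of -0.53 ± 0.251 was not called (adjusted p = 0.0857). That value moved to -0.69 (adjusted p = 0.012) without wild type CD45 single positive replicate 2, the lymphocyte-rich library, in which Pdgfb was lowest of the CD45+ libraries, and to -0.76 (adjusted p = 0.0421) without wild type TdTOSX single positive replicate 2. In Cdh2-cKO libraries Pdgfb was at 8.43 and 5.7 in TdTOSX single positive and at 9.67, 7.46 and 12.4 in double negative cells. The Cdh2-cKO double positive cells held 21.1, 21.8 and 13.8, and the CD45 single positive cells 14.1, 16 and 13.6. Every CD45- library of this genotype was below every CD45+ library, as for 17.6% of all genes, and Pdgfb was lower in CD45- cells with a log2 difference of -0.99 ± 0.255 (adjusted p = 0.00368). Without the Cdh2-cKO CD45- libraries above 50 normalized CPM of Ptprc, which leaves the double negative cells on that side, the difference was -0.67 (adjusted p = 0.0812). The contrast differed between the genotypes by -0.46 (95% interval from -1.15 to 0.23, adjusted p = 0.788). Pdgfb was the one ligand whose group mean was highest in a CD45+ population, from 18.9 in Cdh2-cKO double positive down to 7.06 in Cdh2-cKO TdTOSX single positive cells, with a gap only between the Cdh2-cKO CD45 single positive and the wild type double negative libraries.

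Pdgfc encodes a CUB domain ligand of PDGFRα (chromosome 3, 81036416 to 81214040, plus strand). Wild type TdTOSX single positive cells held 10.1 and 33.7 normalized CPM, and double negative cells 19.4, 59 and 44.9. Wild type double positive cells held 19, 21.5 and 13.7, and CD45 single positive cells 20, 11.9 and 26.3. The CD45- libraries thus spanned a wider range than the CD45+ libraries and enclosed it, and the log2 difference of 0.68 ± 0.364 was not called (adjusted p = 0.127). It was called without wild type TdTOSX single positive replicate 1, the lowest library (0.99, adjusted p = 0.0383), and was 0.16 (adjusted p = 0.754) without the libraries above 50 normalized CPM of Ptprc. In Cdh2-cKO TdTOSX single positive cells Pdgfc was at 55.6 and 20.7, and in double negative cells at 57.9, 44.7 and 59. Cdh2-cKO double positive cells held 34.2, 13.5 and 24.9, and CD45 single positive cells 24.2, 38.9 and 40.6. The Cdh2-cKO difference was 0.65 ± 0.363 (adjusted p = 0.147). Without the libraries above 50 normalized CPM of Ptprc it was 0.99, with the double negative cells alone on the CD45- side. All 3 Cdh2-cKO double negative libraries lay above all 6 CD45+ libraries of that genotype, but 1 of the TdTOSX single positive libraries did not. The group means ran from 53.9 in Cdh2-cKO double negative to 18 in wild type double positive cells, with every neighbour overlapping.

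Leukocyte transcripts varied among the CD45- sorts, so the 3 ligands were also read where they were lowest. In the CD45- libraries with least of them, wild type TdTOSX single positive replicate 1, wild type double negative replicate 1 and the 3 Cdh2-cKO double negative libraries, the pan-leukocyte markers summed to between 190 and 451 normalized CPM. Pdgfa was between 39.9 and 111 in these libraries, Pdgfb between 7.25 and 13.2 and Pdgfc between 10.1 and 59. Endothelial markers, of which 8 were listed, summed to between 47.1 and 453 normalized CPM in CD45- libraries. The 7 platelet or megakaryocyte markers summed to between 283 and 1650 in CD45+ and between 9.93 and 674 in CD45- libraries. Most of the CD45+ sum was Pf4, which was between 278 and 1630 in CD45+ libraries, while the platelet gene Gp9 was at most 0.166 in every library. The keratin gene Krt18 was between 17.8 and 1570 normalized CPM in CD45- libraries, while Epcam, another epithelial gene, was at most 2.04 there. According to the methods, tumor cells carried GFP and were removed ahead of the sort by TdT and CD45. The part of leukocytes, endothelial cells, platelets or remaining tumor cells in the ligand levels was not tested.

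Pdgfd encodes the CUB domain ligand of PDGFRβ (chromosome 9, 6168612 to 6378843, plus strand), and unlike the other ligands it was almost absent from CD45+ cells. In wild type mice it was at 40.9 and 20.5 normalized CPM in TdTOSX single positive and at 21.7, 15.8 and 3.19 in double negative cells. The 6 wild type CD45+ libraries held 0, 0.292 and 0 in double positive and 0, 0.458 and 0.108 in CD45 single positive cells, 15 reads in all. The groups did not overlap, and the lowest CD45- library, double negative replicate 3, was also the one with most Ptprc. Pdgfd was higher in CD45- cells by 7.18 ± 0.807 (adjusted p = 1.69e-06). Cdh2-cKO libraries held 11.7 and 13.8 in TdTOSX single positive and 16.1, 13 and 13.8 in double negative cells. Their CD45+ libraries held 0.166, 0.0485 and 0 in double positive and 0.604, 0.201 and 0 in CD45 single positive cells, 18 reads in all. Pdgfd was higher in CD45- cells of this genotype by 6.50 ± 0.795 (adjusted p = 5.76e-06). With so few CD45+ reads the size of these differences depends on the prior count of the fit. By group mean, wild type TdTOSX single positive cells stood highest (30.7) without overlap with the next group, the Cdh2-cKO double negative cells (14.3). They overlapped with wild type double negative cells, of which replicate 1 (21.7) was above the lower TdTOSX single positive library (20.5).

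On the RPKM scale, which allows levels of different genes to be compared per exon length, Pdgfa was the most abundant ligand in all but 1 library. It made up between 42.1% and 57.4% of the summed RPKM of the 4 ligands in wild type CD45- libraries and between 56.3% and 63.9% in wild type CD45+ libraries. The corresponding ranges in Cdh2-cKO libraries were 50.4% to 79.1% and 54.2% to 68.9%. Pdgfd accounted for between 3.77% and 43.2% of ligand RPKM in wild type CD45- libraries and between 7.83% and 12.1% in those of Cdh2-cKO mice, and for at most 0.998% in any CD45+ library. Pdgfb made up between 18.8% and 27.1% in wild type CD45+ libraries against 8.18% to 15.2% in wild type CD45- libraries. The same shares in Cdh2-cKO libraries were 15.1% to 33.7% in CD45+ and 3.9% to 10.4% in CD45- cells. The exception was wild type TdTOSX single positive replicate 1, in which Pdgfd (43.2%) exceeded Pdgfa (42.1%).

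**Figure D2:**
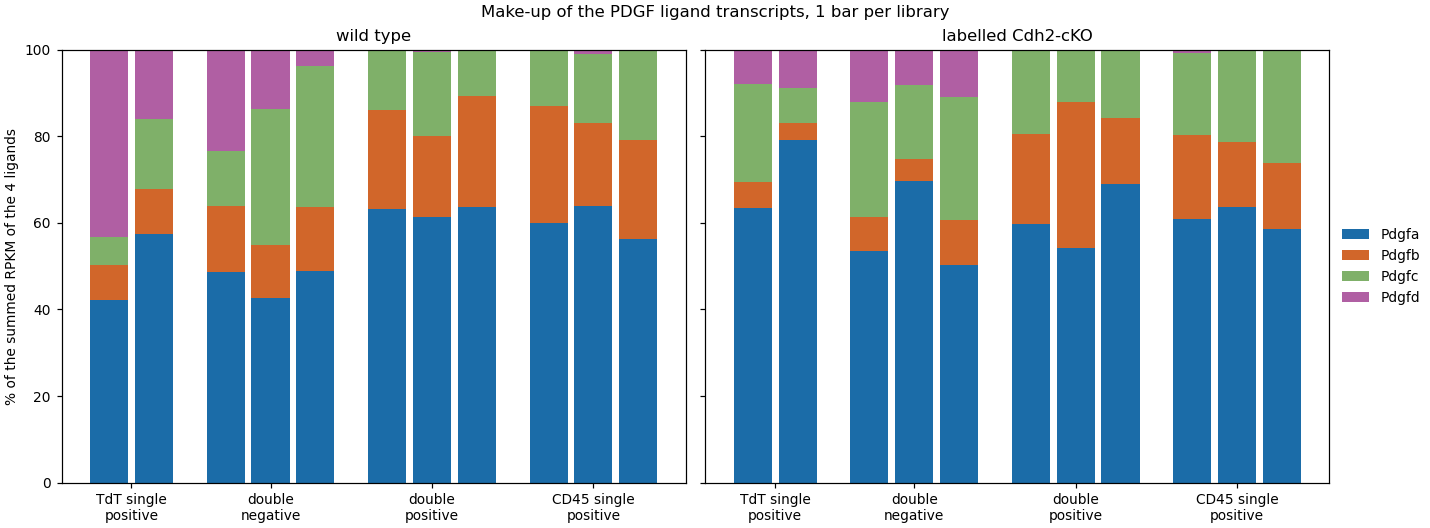
Share of each ligand in the summed RPKM of the 4 ligands in percent, with 1 stacked bar per library, grouped by sorted population for each genotype. Pdgfd is visible in every CD45- bar, from 3.77% to 43.2%, and is at most 0.998% in the CD45+ bars, while Pdgfb takes a larger share in the CD45+ bars.

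Pdgfra encodes PDGFRα, the receptor of PDGF-A and PDGF-C and a common marker of fibroblasts (chromosome 5, 75152291 to 75198204, plus strand). In wild type mice it was at 313 and 184 normalized CPM in TdTOSX single positive cells and at 167, 55 and 33.6 in double negative cells. Double positive cells held 0.119, 0.702 and 0.528, and CD45 single positive cells 0.18, 1.2 and 0.916. The lowest CD45- library was 28 times the highest CD45+ library, and the log2 difference of 7.93 ± 0.63 was the largest of any member (adjusted p = 3.67e-08). Cdh2-cKO libraries held 109 and 106 in TdTOSX single positive and 71.5, 47.5 and 190 in double negative cells. Their double positive cells held 0.497, 0.388 and 1.44, and their CD45 single positive cells 2.25, 1.2 and 1.54. The lowest CD45- library was here 21.1 times the highest CD45+ library, with a log2 difference of 6.53 ± 0.588 (adjusted p = 2.27e-07). Group means ran from 248 in wild type TdTOSX single positive cells, above all libraries of the next group, to 0.45 in wild type double positive cells.

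Pdgfrb encodes PDGFRβ, the receptor of PDGF-B and PDGF-D and a marker of pericytes (chromosome 18, 61045150 to 61085061, plus strand). By group mean RPKM it was the most abundant of the 3 receptor genes in the CD45- populations, whereas Pdgfrl was in the CD45+ populations (0.728 against 0.358 RPKM in wild type CD45 single positive cells). Pdgfrb was at 800 and 368 normalized CPM in wild type TdTOSX single positive and at 306, 148 and 53.6 in double negative cells. Wild type double positive cells held 2.26, 1.7 and 2.01, and CD45 single positive cells 1.56, 2.29 and 2.42. The sides were separated in wild type mice by 7.26 ± 0.519 on the log2 scale (adjusted p = 1.31e-08), without overlap. In Cdh2-cKO mice Pdgfrb was at 247 and 462 in TdTOSX single positive and at 121, 238 and 345 in double negative cells. The CD45+ libraries of these mice held 2.48, 2.72 and 6.74 in double positive and 2.69, 7.09 and 3.65 in CD45 single positive cells. Again no library overlapped, and the log2 difference was 6.10 ± 0.491 (adjusted p = 8.14e-08). Per exon length, Pdgfrb exceeded Pdgfra in all 10 CD45- libraries, by 1.96 to 3.3 times in wild type and by 2.08 to 6.16 times in Cdh2-cKO libraries.

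Pdgfrl encodes a secreted protein that resembles the ligand-binding part of PDGFRβ and has no kinase domain (chromosome 8, 40926212 to 40990785, plus strand). Wild type TdTOSX single positive cells held 116 and 66.8 normalized CPM, and double negative cells 63.3, 49.2 and 25.3. The wild type CD45+ libraries held 2.79, 1.81 and 2.48 in double positive and 1.62, 3.55 and 1.99 in CD45 single positive cells. Pdgfrl was higher in CD45- cells by 4.77 ± 0.341 (adjusted p = 1.31e-08), and the sides did not overlap. In Cdh2-cKO libraries it was at 26.7 and 70.9 in TdTOSX single positive and at 34, 32.2 and 58.6 in double negative cells. Their double positive cells held 4.86, 6.07 and 4.87, and their CD45 single positive cells 2.97, 4.81 and 2.95. The log2 difference was 3.37 ± 0.32 (adjusted p = 4e-07), again without overlap. The contrast between the genotypes was -1.39 for Pdgfrl (95% interval from -2.25 to -0.54), which had an unadjusted p of 0.00531 and an adjusted p of 0.561.

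**Figure D3:**
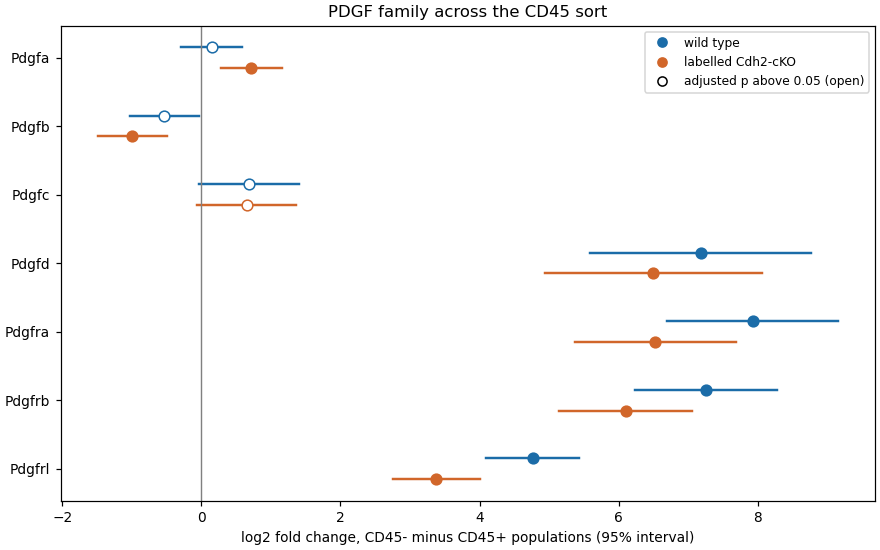
Log2 fold change of each member between the mean of the CD45- and the mean of the CD45+ populations, with 95% intervals from the SE, in wild type and Cdh2-cKO libraries, where filled points were called at an adjusted p of at most 0.05. Pdgfd and the 3 receptor genes lie between 3.37 and 7.93, and Pdgfa, Pdgfb and Pdgfc between -0.99 and 0.72.

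The low receptor level in CD45+ libraries was set beside that of mesenchymal markers. The mean of the wild type CD45+ libraries was 0.404% of the CD45- mean for Pdgfra, 0.609% for Pdgfrb, 0.701% for Pdgfd and 3.7% for Pdgfrl. For 7 fibroblast markers with reads this share had a median of 0.348% (0.312% to 5.82%), and for 9 mural markers 0.575% (0.259% to 3.26%). In Cdh2-cKO libraries the shares were 1.16% for Pdgfra, 1.49% for Pdgfrb, 1.24% for Pdgfd and 9.94% for Pdgfrl, beside medians of 1% (0.692% to 7.58%) for fibroblast and 1.64% (1.1% to 4.3%) for mural markers. Pdgfra, Pdgfrb and Pdgfd lay within the range of both lists in each genotype, and Pdgfrl in the Cdh2-cKO libraries lay above both. The part of mesenchymal transcripts carried into the CD45+ sorts was not tested. The 3 ligands found on both sides had shares of 91.8% (Pdgfa), 140% (Pdgfb) and 56% (Pdgfc) in wild type and of 61.7%, 192% and 61.7% in Cdh2-cKO libraries, far from both the mesenchymal markers and the pan-leukocyte markers, whose medians were 694% and 840%.

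**Figure D4:**
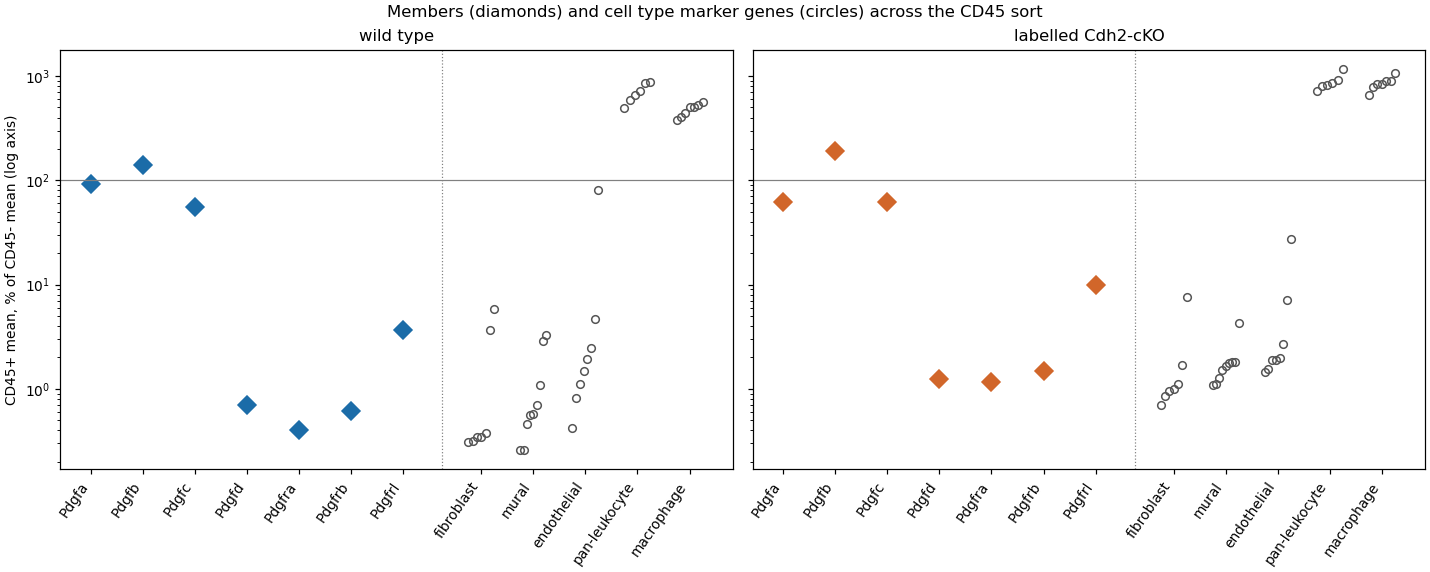
Mean of the CD45+ libraries as a percentage of the mean of the CD45- libraries on a log axis, for the 7 members (diamonds) and for single marker genes of 5 cell types (circles), with wild type on the left and Cdh2-cKO on the right. Pdgfd, Pdgfra and Pdgfrb lie among the fibroblast and mural markers, Pdgfrl lies at 3.7% and 9.94%, and Pdgfa, Pdgfb and Pdgfc lie between the mesenchymal and the leukocyte markers, from 56% to 192%.

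Within CD45- cells the comparison of TdTOSX single positive with double negative cells asked whether cells with an Osx-cre history carry more of a member. In edgeR's test 0 of 7 members were called in wild type, where 0.16% of all genes were called, and 0 in Cdh2-cKO libraries, where 0.0332% were. DESeq2 and limma voom also called 0 members, where DESeq2 called 505 genes in wild type and 627 in Cdh2-cKO libraries and voom 1 and 551. In wild type mice the TdTOSX single positive libraries were all above the double negative libraries for Pdgfra, Pdgfrb and Pdgfrl, with log2 differences of 1.54 ± 0.693 (adjusted p = 0.278), 1.79 ± 0.604 (adjusted p = 0.184) and 0.99 ± 0.439 (adjusted p = 0.274). Such an order held for 16.1% of all genes in wild type and 21.6% in Cdh2-cKO libraries. These 3 had an unadjusted p under 0.05, as did 2508 of 15043 genes. Without wild type double negative replicate 1, Pdgfrb was called (2.54, adjusted p = 0.0402). The pan-leukocyte markers summed to 190 normalized CPM in that library, against 987 and 6610 in the double negative replicates that remained. In Cdh2-cKO libraries the populations overlapped for every member, the 3 receptor genes gave 0.06 (95% interval from -1.31 to 1.43), 0.59 (-0.59 to 1.78) and 0.23 (-0.64 to 1.10), and 0 members had an unadjusted p under 0.05, against 1946 genes. The ligands gave wild type differences of 0.32 for Pdgfa, -0.36 for Pdgfb, -0.90 for Pdgfc and 1.17 for Pdgfd, with adjusted p between 0.411 and 0.636. The summed fibroblast markers ran the same way as the receptor genes in wild type libraries, from 31900 to 59300 in TdTOSX single positive and from 4230 to 32100 in double negative cells, with overlap. The summed mural markers did so without overlap, from 3120 to 4460 and from 316 to 2470. The pan-leukocyte markers reached at most 1810 in the former and 6610 in the latter. Their part in these differences was not tested.

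Within CD45+ cells no member was called between double positive and CD45 single positive cells. In wild type and in Cdh2-cKO libraries 0 members were called by edgeR, DESeq2 or limma voom, and 0 had an unadjusted p under 0.05, where 0% of all genes were called by edgeR in either genotype. DESeq2 called 5 genes in wild type and 2 in Cdh2-cKO libraries and voom 0 and 1, and by edgeR 669 and 723 genes had an unadjusted p under 0.05. In Cdh2-cKO libraries all double positive libraries were above all CD45 single positive libraries for Pdgfrl (0.56 ± 0.418, adjusted p = 0.977), which held for 9.14% of all genes. For the ligands present in these cells the 95% intervals in wild type ran from -0.43 to 0.73 for Pdgfa, from -0.66 to 0.64 for Pdgfb and from -1.07 to 0.85 for Pdgfc. The Cdh2-cKO libraries gave -0.64 to 0.52, -0.28 to 1.02 and -1.47 to 0.45. When each population was set against the mean of the other 3, as in the methods of the study, 8 higher calls fell on members in wild type and 9 in Cdh2-cKO libraries, against 14% and 14.9% of all gene tests. In both genotypes 4 of these were Pdgfd and the 3 receptor genes in TdTOSX single positive cells and 4 were the same genes in double negative cells. The remaining call was Pdgfb in Cdh2-cKO double positive cells, at 0.91 ± 0.266 (adjusted p = 0.0181).

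Between the genotypes 0 members were called in any of the 4 populations by edgeR, DESeq2 or limma voom, where edgeR called 0.00166% of all gene tests, 1 of 60172. DESeq2 called 522 genes in double negative, 1 in double positive, 137 in TdTOSX single positive and 26 in CD45 single positive cells, and voom called 0 in each. Cdh2 counts were not lower in the CD45- libraries labelled Cdh2-cKO, and in double positive cells Cdh2 was low in both, with means of 0.343 normalized CPM in Cdh2-cKO and 0.496 in wild type libraries, so these differences are between labelled groups. An unadjusted p under 0.05 was reached by Pdgfa in TdTOSX single positive (log2 difference 0.95 ± 0.365 toward Cdh2-cKO, adjusted p = 0.408) and by the same gene in the double negative sort (0.86 ± 0.298, adjusted p = 0.235), in both of which all Cdh2-cKO libraries were above all wild type libraries. Pdgfrl in double positive cells (1.15 ± 0.426, adjusted p = 1) was the third. In the TdTOSX single positive libraries the 6 epithelial markers summed to 33.9 and 566 normalized CPM in wild type, against 933 and 928 in Cdh2-cKO. In double negative libraries they ran from 505 to 1400 in wild type and from 1060 to 1990 in Cdh2-cKO, with overlap. Their part in the Pdgfa differences was not tested. An unadjusted p under 0.05 was reached by 1583 genes in TdTOSX single positive, 1443 in double negative, 515 in double positive and 1478 in CD45 single positive cells. In the TdTOSX single positive cells both Cdh2-cKO libraries were below both wild type libraries for Pdgfra, with a difference of -1.21 ± 0.779 (adjusted p = 0.603), and for Pdgfd, with -1.26 ± 0.973 (adjusted p = 0.662). With Pdgfa, 3 members thus had libraries that did not overlap in this population, as had 42.1% of all genes. In double negative cells this was so for 1 member (Pdgfa) and 9.19% of all genes. In double positive cells it held for Pdgfrl and for Pdgfrb (0.99 ± 0.593, adjusted p = 1), both higher in Cdh2-cKO libraries, and for 12.8% of all genes. In CD45 single positive cells it held for Pdgfra (1.11 ± 0.754, adjusted p = 0.644) and Pdgfrb (1.09 ± 0.592, adjusted p = 0.555), also higher in Cdh2-cKO libraries, and for 10.1% of all genes. The CD45- against CD45+ difference changed with the genotype for 0 members and for 0% of all genes in edgeR's test, with 0 members also in DESeq2 and limma voom, which called 31 and 0 genes. Of the members 1 (Pdgfrl) and of all genes 1157 had an unadjusted p under 0.05 there.

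**Figure D5:**
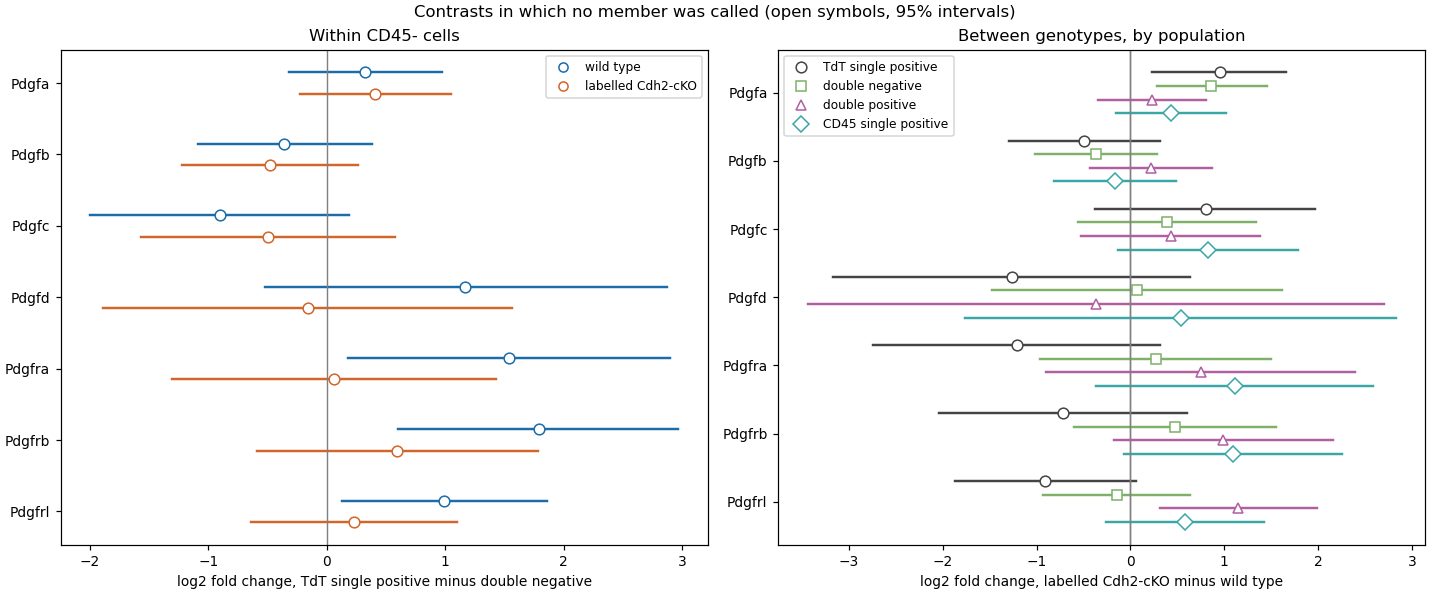
Log2 fold changes with 95% intervals from the SE of TdTOSX single positive against double negative cells in each genotype (left) and of Cdh2-cKO against wild type libraries in each population (right). All symbols are open because 0 members were called, and wild type Pdgfra and Pdgfrb on the left lie furthest above 0, at 1.54 and 1.79.

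Over the 22 libraries the members on the CD45- side varied together. Pearson correlations of log2 normalized CPM between Pdgfd, Pdgfra, Pdgfrb and Pdgfrl were between 0.95 and 0.98. Pdgfb ran against these 4, at -0.71 to -0.63, and Pdgfa and Pdgfc ran weakly with them, at 0.30 to 0.46, with 0.52 between Pdgfa and Pdgfc. All of these values rest on libraries that share the division by CD45, and they are descriptions. Among the genes most like Pdgfra were Postn, which encodes the matrix protein periostin, and Prrx1, a mesenchymal transcription factor gene (0.992 for each). Those most like Pdgfrb were Thbs2 (0.996), which encodes a thrombospondin, Serpine2 (0.995), a protease inhibitor gene, and Kdelr3 (0.993). Pdgfrl was followed by Kcne4 (0.988), Bicc1 (0.985) and Epb41l3 (0.984), and Pdgfd by Ces2g (0.991), Cdc42ep5 (0.984) and Mfap5 (0.982), a microfibril gene. The remaining ligands had looser companions, with Pgm2 (0.804), Anxa7 (0.788) and Repin1 (0.787) for Pdgfa and Nol4l (0.853), Ndufb10 (0.834) and Lsr (0.825) for Pdgfb. Pdgfc was closest to Extl2 (0.888), Nrp2 (0.877), a neuropilin and known PDGF-binding coreceptor, and Tmem237 (0.870).

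Of the genes that process or bind PDGF, 11 of 12 listed were tested, 6 were higher and 2 lower in CD45- cells, in wild type and in Cdh2-cKO libraries alike by count. Of all genes, 25.7% were called higher and 25.3% lower in wild type, and 27% and 23.6% in Cdh2-cKO libraries. The median log2 difference was 2.89 in wild type and 2.26 in Cdh2-cKO libraries, against -0.09 and -0.02 over all genes. In wild type mice the lowest adjusted p belonged to Sparc (7.70), a matricellular protein that binds PDGF-B, Plat (6.24), the tissue plasminogen activator that cleaves PDGF-C, Pcsk5 (8.28), a proprotein convertase, and Hspg2 (5.83), which encodes the matrix proteoglycan perlecan. The corresponding Cdh2-cKO values were 6.27, 5.32, 6.29 and 4.67, all called. The genes lower in CD45- cells were Furin, the convertase that cuts PDGF-A and PDGF-B (-1.33 and -1.79), and St14, which encodes matriptase (-5.80 and -3.02). Of the 8 coreceptor genes, 3 were higher in wild type and 4 in Cdh2-cKO libraries and 0 lower, with medians of 0.55 and 0.43. These counts are read beside the same shares of all genes. Efnb2, encoding ephrin-B2, which controls receptor uptake in mural cells, was higher by 3.59 and 2.71, the chloride channel gene Ano1 by 3.48 and 3.72 and the integrin gene Itgb3 by 2.42 and 3.42. Itgav, its partner, was at 0.51 (adjusted p = 0.0504) in wild type and was called in Cdh2-cKO libraries (0.56).

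The signaling genes downstream of the receptors were called in both directions, and their counts are read beside the 25.7% of all genes called higher and 25.3% lower in wild type and the 27% and 23.6% in Cdh2-cKO libraries. Of 21 genes whose products dock on active receptors, 7 were higher and 4 lower in CD45- cells of wild type mice, with a median of 0.42, and 8 were higher and 6 lower in Cdh2-cKO libraries, where the median was -0.17. In wild type libraries the adaptor gene Nck2 was higher by 2.82 and the phosphatase gene Ptpn11 by 0.95, while the kinase subunit gene Pik3cb (-1.77) and the adaptor gene Grb2 (-0.95) were lower. The Cdh2-cKO values were 3.37, 0.65, -0.81 and -1.22, all called. Of 12 negative regulators, 4 were higher and 5 lower in wild type, with a median of -0.37, and 3 higher and 5 lower in Cdh2-cKO libraries, where the median was -0.07. The feedback inhibitors Spry4 (5.23 and 4.04) and Spry1 (3.18 and 1.65) were higher in CD45- cells of both genotypes, whereas the phosphatases Ptpn1 (-1.31 and -1.35) and Ptprj (-1.66 and -2.03), known to dephosphorylate the receptors, were lower. Of 16 early response genes, 3 were higher and 3 lower in wild type, with a median of 0.19, and 6 higher and 3 lower in Cdh2-cKO libraries, where the median was -0.12. Fosl1 was higher by 3.78 and 3.33 and Egr1 by 1.72 and 1.38 in CD45- cells, both encoding transcription factors, and Plaur, the urokinase receptor gene, was lower at -1.66 and -1.26. Srf, which encodes serum response factor, was higher in wild type (0.84) and at 0.40 (adjusted p = 0.0685) in Cdh2-cKO libraries. Between TdTOSX single positive and double negative cells of wild type mice, 2 of 79 pathway genes were called, beside 0.16% of all genes in that contrast. Both were early response genes higher in TdTOSX single positive cells, namely Junb (2.06 ± 0.385) and Ier2 (1.49 ± 0.273), each with an adjusted p of 0.0422. In wild type CD45- against CD45+ cells, Junb was called lower (-0.99) and Ier2 was not called (0.36). The Cdh2-cKO values were -0.57 and 0.59, of which only the latter was called. Junb and Ier2 were named after their values were seen.

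Related ligands and receptors were read for comparison. Of 11 genes of the VEGF family and of the other class III receptors, 6 were higher and 2 lower in wild type CD45- cells, with a median of 0.97. In Cdh2-cKO libraries 6 were higher and 1 lower, and the median was 1.72. The shares of all genes were 25.7% higher and 25.3% lower in wild type, with a median of -0.09. For Cdh2-cKO libraries they were 27% and 23.6%, with a median of -0.02. The lymphangiogenic ligand genes Vegfd (6.43 and 4.88) and Vegfc (3.45 and 3.71) and the VEGF receptor genes Flt4 (5.79 and 4.05) and Kdr (3.36 and 1.87) were higher in CD45- cells. Csf1r, the macrophage class III receptor gene, was lower at -2.73 and -3.48. By position on the CD45 sort it was thus opposite to Pdgfra and Pdgfrb, which are of the same receptor class. Of the other class III receptor genes listed, Flt3 was called lower in wild type (-3.30) and was not called in Cdh2-cKO libraries (0.33). Kit was called in neither genotype (-0.53 and 0.63).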

How the data were processed

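RNA was measured in 22 libraries of sorted stromal cells with a mean RNA integrity number of 8.95, prepared with the SMARTer Ultra Low kit and sequenced on an Illumina HiSeq. Per the labels and methods, the authors aligned reads to GRCm38 with STAR 2.0.4b and counted uniquely aligned reads on Ensembl genes with featureCounts (1.45 in the submitters' processing notes). The deposited counts are raw whole numbers. The deposited CPM express those counts relative to the total of the library, and the deposited RPKM are these CPM divided by exon length, both computed by the authors, and both deviated from the counts by at most 5.1e-14 in relative terms. Totals ran from 17267392 to 23157130 in wild type and from 16594228 to 26784003 in Cdh2-cKO libraries. Strand use in counting is not given in the sources used here.

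Annotated rRNA genes (355) were removed, as was any gene that did not exceed 1 CPM in 2 or more libraries, and the remaining 15043 genes were fitted with edgeR 4.0.16 (R 4.3.3, quasi-likelihood test, TMM factors from 0.809 to 1.21, 8 group means), with Benjamini-Hochberg adjustment and a threshold of 0.05. Standard errors were derived from the test, and 95% intervals are normal intervals from them. Alternatives were the test of the study's methods (voomWithQualityWeights, limma 3.58.1) and DESeq2 1.42.0. Further alternatives were RLE factors, other filters, fewer libraries, a replicate block and leaving out each library. The test was checked on simulated data. Same-numbered libraries were checked for pairing. Correlations used log2 normalized CPM with a prior count of 2, and symbols come from GENCODE M21.

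The members, gene lists and tests were chosen with earlier results of these data known. Named genes are the members, the 4 genes of each pathway list with the lowest adjusted p in the wild type CD45 contrast, genes called between genotypes, the leading cell type markers, Cdh2, Sp7 and Ptprc, and the 3 genes most like each member, 1 of which is not reported here. Others were named after their values were seen.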

Additional observations from a re-analysis of the deposited data

Results flagged for a closer look

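Pdgfra differed between the genotypes in opposite directions in a pair of populations, in neither of which the difference was called. In TdTOSX single positive cells both Cdh2-cKO libraries were below both wild type libraries (log2 difference -1.21, adjusted p = 0.603), and in CD45 single positive cells all 3 Cdh2-cKO libraries were above all wild type libraries (1.11, adjusted p = 0.644), the closest pair both rounding to 1.2 normalized CPM. The difference of these differences, a contrast added after seeing the data, was -2.32 ± 1.08 with an unadjusted p of 0.0469 and an adjusted p of 0.569 in edgeR's quasi-likelihood test, so it was not called. In the CD45 single positive libraries Pdgfra rested on between 3 and 41 reads. In TdTOSX single positive cells the fibroblast markers summed to 13600 and 28400 normalized CPM in Cdh2-cKO against 59300 and 31900 in wild type libraries, and the pan-leukocyte markers to 4540 and 2030 against 219 and 1810. Their part in the difference was not tested. Cdh2 was not lower in the CD45- libraries labelled Cdh2-cKO.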

How the results depend on the processing

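The calls of Pdgfd, Pdgfra, Pdgfrb and Pdgfrl in CD45- against CD45+ cells held in both genotypes under every alternative run, with log2 differences from 6.88 to 9.18, 7.46 to 8.40, 6.89 to 7.78 and 4.54 to 5.17 in wild type and from 6.22 to 7.22, 6.14 to 6.92, 5.84 to 6.40 and 2.94 to 3.64 in Cdh2-cKO libraries. Of the values compared across settings for single genes, 364 kept their direction and side of the threshold, 8 gained and 3 lost a call, and 3 changed sign. The sign changes were all Pdgfa in wild type libraries, none of them called. In CD45- against CD45+ cells it was -0.10 without TdTOSX single positive replicate 2 and -0.00 without the CD45- libraries above 50 normalized CPM of Ptprc (leaving out 1 library gave -0.10 to 0.34), and in TdTOSX single positive against double negative cells it was -0.18 without TdTOSX single positive replicate 2 (-0.18 to 0.70). Pdgfb in wild type CD45- against CD45+ cells was called by limma voom (-0.65, adjusted p = 0.0456) and without the lymphocyte-rich and the most Ptprc-rich CD45- library together (-0.61, adjusted p = 0.033). The count of members called between TdTOSX single positive and double negative cells of wild type mice ran from 0 to 1 when 1 library was left out. Spearman's rho in place of Pearson's r shared 11 of the 21 genes most like the members.

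Whether replicate numbers pair the libraries is not given, and correlations of deviations between libraries did not settle it. Same-numbered libraries of a genotype correlated at -0.294 to 0.593 (median 0.00907) in wild type and at -0.132 to 0.175 (median 0.0543) in Cdh2-cKO libraries. For other numbers the medians were -0.0309 and -0.014. In wild type, 4 of 15 same-numbered and 5 of 30 other pairs exceeded 0.1. In Cdh2-cKO libraries 6 of 15 same-numbered and 1 of 30 other pairs did. With the replicate number as a block, 4 members were called in CD45- against CD45+ cells of wild type mice and 6 in Cdh2-cKO libraries, as without it. Levels near or below 3 counts per library, such as Pdgfd in CD45+ cells, are limited by depth.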
